A study of Mus musculus with 9 samples.

Results

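The genes described here are 10 parts of the liver's defence against oxidants and metals: the transcription factor NRF2 (gene Nfe2l2) and its inhibitor Keap1, the NRF2 targets Nqo1, Gclc, Gclm, Hmox1, Txnrd1 and Srxn1, and the metallothioneins Mt1 and Mt2. They were chosen by name, with every probe set that the platform annotation gives to them, which made 20 of the 45037 probe sets tested, and 10 of 18193 genes with a symbol. Expression was measured in liver of 8-week-old KKAy mice, an obese strain that models type 2 diabetes, on 9 one-colour arrays. The BI group (3 arrays) was given an intraperitoneal injection of 100 µL culture medium with insulin at 40 µg/mL, with 11% of the insulin in biomineralized form, the Insulin group (3 arrays) the same volume and concentration of plain insulin, and the untreated group (3 arrays) no treatment by its label, although the protocol tells of controls that received medium alone. All groups share the KKAy background, and the chow described for 8 of the 9 arrays held 34% fat. Nothing states whether 1 animal or a pool was hybridised per array, so the p-values rest on a spread between samples that may be technical. Rats are described in the growth protocol of BI replicate 2, which stayed in its labelled group.

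In unstressed cells KEAP1 binds NRF2 and hands it to a CUL3 ubiquitin ligase for destruction. Oxidants and electrophiles modify cysteines of KEAP1, NRF2 then accumulates, pairs with small MAF proteins and binds antioxidant response elements (AREs) of genes for quinone reduction, glutathione synthesis, thiol repair and heme breakdown. NRF2 is controlled mainly as a protein, so the level of its mRNA is a poor guide to its activity. Metallothioneins are small, cysteine-rich proteins that bind zinc, copper and cadmium, and in liver their genes are known to respond to zinc through MTF1 at metal response elements (MREs), to glucocorticoids and to inflammatory cytokines.

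None of the 20 probe sets passed limma's test between groups after Benjamini-Hochberg adjustment. What stood out was the spread between arrays of the same group: Mt1 and Mt2 varied together over an 18.7-fold and 11.2-fold range of signal, with a low array in each of the 3 groups. Among the NRF2 targets, Gclc, Gclm and Nqo1 lay higher on each of the 3 BI arrays than on each of the 3 Insulin arrays, by amounts that did not pass the test. They made 4 of the 20 probe sets, where 4.6% of all probe sets lay so. For Gclm the margin was under the rounding of the values, and its second probe set overlapped. The median log2 signal of an array was 6.11 to 6.30 and arrays correlated at r = 0.909 to 0.921, and the defining hepatocyte markers Alb (15.15 to 15.45), Apoa1 (15.34 to 15.62) and Ttr (15.24 to 15.61) were near the top of the scale on every array. Values below are log2 signals, and a difference is a log2 difference ± SE from 1 limma fit of the 9 arrays, for the brightest probe set of a gene unless another is named. Signals of different probe sets are not compared as amounts of RNA.

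**Figure D1:**
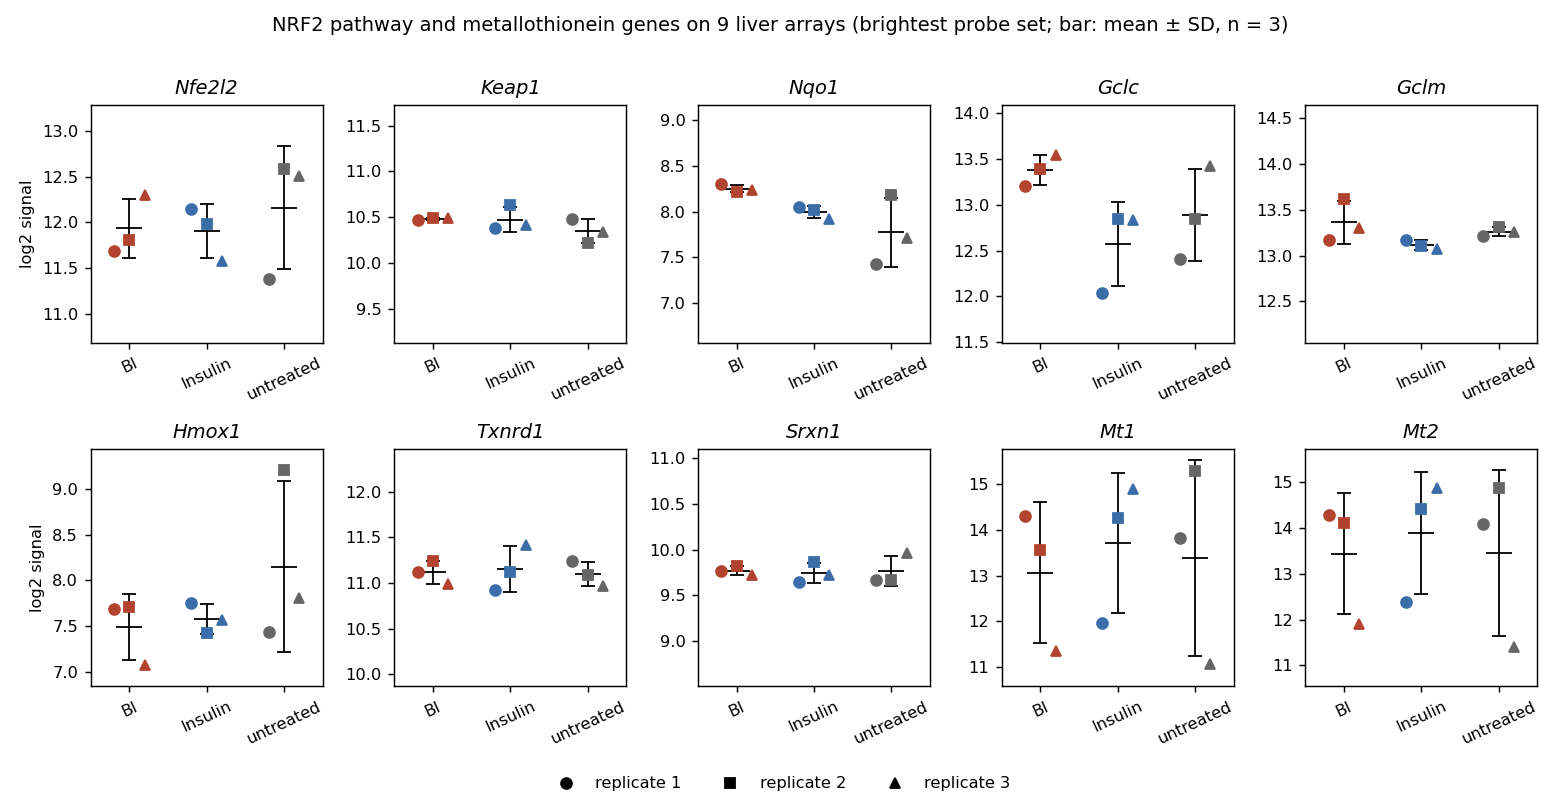
Log2 signal (vertical axis) of the brightest probe set of each gene on the 9 arrays, by group, with a symbol for each replicate and a bar for the mean ± SD (n = 3). Axes of Mt1 and Mt2 span a range of signal wider than those of the other genes. Mt1 and Mt2 spread from 11.06 to 15.29 and from 11.40 to 14.88, while Keap1 stayed between 10.22 and 10.63.

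Nfe2l2, the gene of NRF2 itself, had signals of 11.69, 11.81 and 12.30 on the BI arrays, 12.15, 11.98 and 11.58 on the Insulin arrays, and 11.38, 12.58 and 12.51 on the untreated arrays. The groups overlapped, and the untreated arrays held both the lowest and the highest value. The difference was -0.22 ± 0.37 for BI against untreated and -0.25 ± 0.37 for Insulin against untreated. For BI against Insulin it was 0.03 ± 0.37, with a 95% interval from 0.565-fold to 1.84-fold. Its second probe set, at a lower signal, ranged from 6.32 to 8.22. The spread of Nfe2l2 between arrays of a group (SD 0.47) was larger than that of 95.1% of the 2584 probe sets within 1 log2 unit of its level.

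Keap1, the inhibitor, was at 10.47, 10.49 and 10.49 with BI, 10.38, 10.63 and 10.41 with Insulin, and 10.48, 10.22 and 10.34 without treatment. These values overlapped in all 3 comparisons, and its within-group SD of 0.11 was smaller than that of most probe sets at its level (median 0.18). Its intervals ran from 0.853-fold to 1.42-fold for BI against untreated, from 0.845-fold to 1.40-fold for Insulin against untreated, and from 0.783-fold to 1.30-fold for BI against Insulin. A dimmer Keap1 probe set (5.76 to 6.80) gave differences of the other sign against untreated (-0.19 ± 0.32 with BI and -0.39 ± 0.32 with Insulin).

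Glutathione synthesis begins with the enzyme glutamate-cysteine ligase, whose catalytic subunit is Gclc and whose modifier subunit is Gclm. Gclc was at 13.21, 13.39 and 13.54 on the BI arrays, 12.04, 12.84 and 12.83 on the Insulin arrays, and 12.41, 12.84 and 13.42 on the untreated arrays. Each BI array was above each Insulin array, while the BI and untreated arrays overlapped because of untreated replicate 3. BI minus Insulin was 0.81 ± 0.33, or 1.76-fold (95% interval 1.03 to 2.98), with an unadjusted p of 0.0397 and a limma adjusted p of 1. BI minus untreated was 0.49 ± 0.33 (0.25 without untreated replicate 1 and 0.76 without untreated replicate 3). The other bright probe set of Gclc gave 12.73, 12.93 and 13.04 with BI, 12.27, 12.43 and 12.30 with Insulin, and 12.13, 11.88 and 12.77 without treatment. There, too, the BI arrays lay above the Insulin arrays (0.57 ± 0.25, unadjusted p 0.0550), and BI minus untreated was 0.64 ± 0.25 (unadjusted p 0.0354, adjusted p 0.999 by limma). Insulin minus untreated differed in sign between these probe sets, at -0.32 ± 0.33 and 0.07 ± 0.25.

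Gclm, the modifier subunit, was at 13.17, 13.62 and 13.30 with BI and at 13.17, 13.11 and 13.07 with Insulin, against 13.21, 13.31 and 13.26 without treatment. The BI and Insulin groups did not overlap, by a margin under the rounding of these values, and BI replicate 2 was the highest of the 9 arrays. BI minus Insulin was 0.25 ± 0.17 (0.12 without BI replicate 2) and Insulin minus untreated -0.14 ± 0.17. The second Gclm probe set gave a similar BI minus Insulin difference (0.21 ± 0.16) with overlapping groups.

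Nqo1, the quinone reductase often used as a readout of NRF2, has 1 probe set. It stood at 8.30, 8.22 and 8.24 on the BI arrays, 8.05, 8.02 and 7.92 on the Insulin arrays, and 7.43, 8.18 and 7.71 on the untreated arrays. The BI arrays lay above all others, and the untreated arrays were the most scattered (SD 0.38, against 0.04 with BI and 0.07 with Insulin). BI minus untreated was 0.48 ± 0.21, or 1.40-fold (95% interval 0.992 to 1.97, unadjusted p 0.0545, limma adjusted p 0.999). The difference moved from 0.31 without untreated replicate 1 to 0.69 without untreated replicate 2. BI minus Insulin was 0.26 ± 0.21 and Insulin minus untreated 0.23 ± 0.21.

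Hmox1, heme oxygenase 1, which opens the heme ring and is also abundant in macrophages that clear red cells, was at 7.69, 7.71 and 7.07 with BI and at 7.75, 7.42 and 7.57 with Insulin, against 7.43, 9.21 and 7.81 without treatment. A single array, untreated replicate 2, stood well above the other 8. The differences from untreated, -0.66 ± 0.45 with BI and -0.57 ± 0.45 with Insulin, were -0.13 and -0.04 without that array. The same array had the highest summed linear signal of the neutrophil markers, 9785 against 1098 to 4301 on the other 8 (7 of 9 listed genes measured, 4 of them below the lowest array median, none at 0). S100a8 (12.74) and S100a9 (11.29) made up most of that sum, the other measured genes lying at 3.38 to 7.04 there. S100a8, S100a9, Mmp8 and Camp were highest on that array, and Csf3r, Ltf and Cxcr2 were not. By group the neutrophil sum ran from 1098 to 2875 with BI, 1549 to 4301 with Insulin and 1621 to 9785 without treatment. The summed signal of the Kupffer cell markers was 30152 on untreated replicate 2, below 32791 on BI replicate 1 and 30298 on Insulin replicate 3. The part of either cell type in the Hmox1 value was not tested. In whole liver, fewer cells of a type and less RNA per cell cannot be told apart.

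Txnrd1, cytosolic thioredoxin reductase, and Srxn1, which restores overoxidized peroxiredoxins, had the closest group means of the set. Txnrd1 gave 11.12, 11.24 and 10.99 with BI, 10.92, 11.12 and 11.42 with Insulin, and 11.24, 11.09 and 10.97 without treatment. Its differences were 0.02 ± 0.19 for BI against untreated, 0.05 ± 0.19 for Insulin against untreated and -0.04 ± 0.19 for BI against Insulin. A dim probe set of Txnrd1 lay at 6.99 to 7.07 on the BI arrays, above the untreated arrays (5.86 to 6.47), but its Insulin arrays ran from 3.09 to 7.19 and its BI minus untreated difference was 0.79 ± 0.97. Srxn1 had signals from 9.65 to 9.96 over the 9 arrays, and its 95% intervals in the 3 comparisons all lay between 0.760-fold and 1.32-fold. The other 3 Srxn1 probe sets had differences between -0.17 and 0.13.

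**Figure D2:**
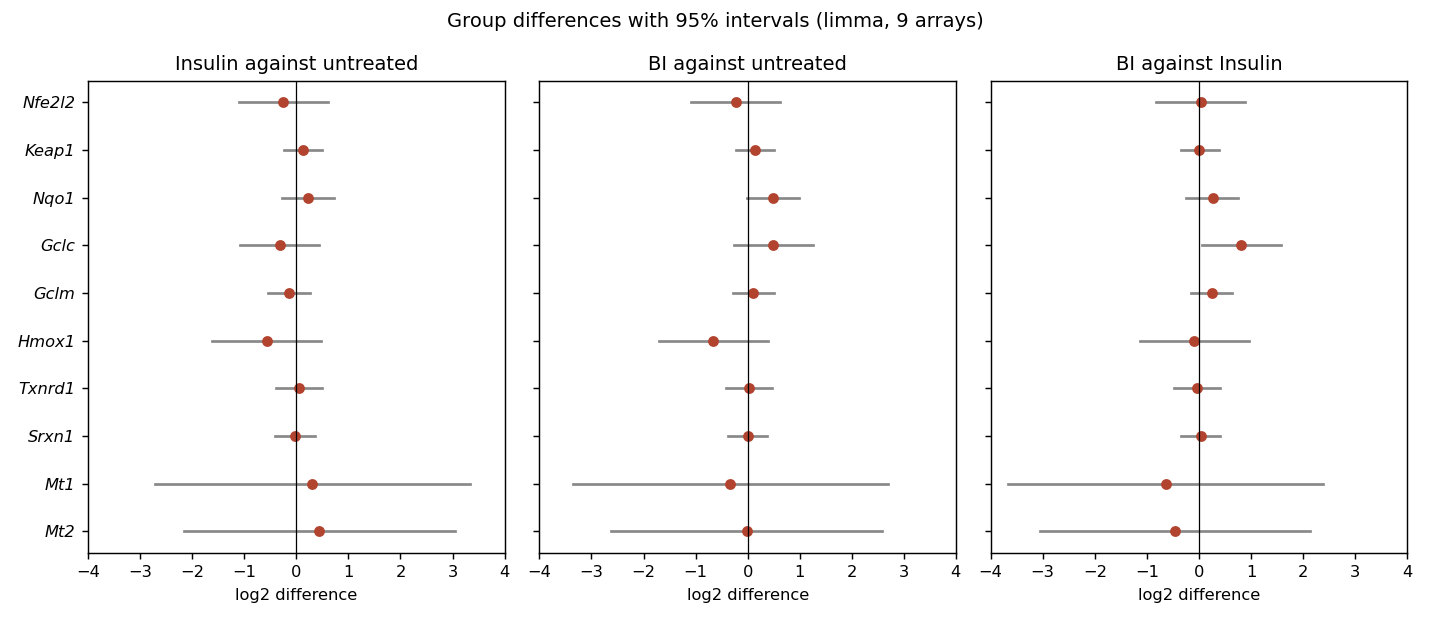
Log2 differences (horizontal axis) of the 10 genes in the 3 comparisons, as points with 95% limma intervals (lines). The interval of Gclc for BI against Insulin (0.05 to 1.57) is the 1 that leaves out 0, and those of Mt1 and Mt2 are the widest.

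The 3 comparisons asked whether plain insulin, or insulin partly in biomineralized form, changed these genes, and whether the forms differed. For Insulin against untreated, 0 of 20 probe sets passed the adjusted threshold of 0.05 (0% of all probe sets did), and 0 had an unadjusted p under 0.05, where 4.47% of all probe sets had one. For BI against untreated, 0 of 20 passed (0.0111% of all), and 1, the second Gclc probe set, had an unadjusted p under 0.05 (4.48% of all). For BI against Insulin, 0 of 20 passed (0% of all), and 1, the brightest Gclc probe set, had an unadjusted p under 0.05 (4.04% of all). The moderated F test over the 3 groups called 0 of 20 (0% of all), with 0 at an unadjusted p under 0.05 (4.4% of all).

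By position alone, the arrays of the groups stood fully apart for 1 of 20 probe sets in Insulin against untreated (9.19% of all), 2 of 20 in BI against untreated (9.21% of all) and 4 of 20 in BI against Insulin (9.6% of all). The BI arrays lay above the Insulin arrays for 4 of 20 probe sets, those of Gclc (both), Gclm and Nqo1, where 4.6% of all probe sets did so, and below for 0 of 20 (5% of all). BI arrays lay above untreated arrays for 2 of 20, Nqo1 and a dim Txnrd1 probe set (4.94% of all), and Insulin arrays below untreated arrays for 1 of 20, Gclm (3.86% of all). The 4 probe sets come from 3 genes measured on the same arrays, so they are not 4 separate observations. The median difference of the 10 genes was 0.02 for Insulin against untreated, 0.01 for BI against untreated and 0.02 for BI against Insulin, beside 0.02, 0.00 and -0.03 over all genes. The comparisons with untreated share the same 3 untreated arrays. In BI against Insulin, endothelial markers also differed in sign together: all 12 were lower in the BI mean, 4 without overlap (33.3%, where 5% of all probe sets lay below). These 4 were Clec4g and Tek, and also Lyve1 and Cdh5, the latter 2 named after their values were seen. The summed signal of the 12 was 6749 to 9134 with BI against 9212 to 11521 with Insulin (7198 to 10385 in the untreated group). Of the 12, 1 (Pecam1) was below the lowest array median and none was at 0. Of 14 Kupffer cell markers 13 were lower, with sums of 17588 to 32791 with BI against 21184 to 30298 with Insulin. In the other lists, 6 of 7 neutrophil, 5 of 7 cholangiocyte, 7 of 12 stellate cell, 5 of 12 hepatocyte, 4 of 8 lymphocyte and 1 of 3 red cell markers were lower. The part of these cells in the glutathione and Nqo1 differences was not tested.

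The metallothioneins were the variable part of the set. Mt1 was at 14.30, 13.55 and 11.34 on BI replicates 1, 2 and 3, at 11.97, 14.26 and 14.89 on the Insulin replicates, and at 13.82, 15.29 and 11.06 on the untreated replicates. Mt2 was at 14.29, 14.12 and 11.91 with BI, at 12.38, 14.42 and 14.88 with Insulin, and at 14.10, 14.87 and 11.40 without treatment. The low arrays were the same for both genes: BI replicate 3, Insulin replicate 1 and untreated replicate 3. Within a group the highest and lowest Mt1 signals were 7.75-fold apart with BI, 7.54-fold with Insulin and 18.7-fold without treatment, and those of Mt2 5.21-fold, 5.66-fold and 11.1-fold. Group means lay closer together than that: Mt1 averaged 13.06 ± 1.54 with BI, 13.71 ± 1.53 with Insulin and 13.39 ± 2.15 without treatment (SD, n = 3 each). Insulin minus untreated was 0.31 ± 1.30 for Mt1 and 0.44 ± 1.11 for Mt2, BI minus untreated -0.33 ± 1.30 and -0.02 ± 1.11, and BI minus Insulin -0.64 ± 1.30 and -0.46 ± 1.11. For Mt1 the 95% interval of BI against untreated ran from 0.0979-fold to 6.47-fold, so a several-fold change in either direction was not detectable with these arrays.

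Only 3.23% of the variation of Mt1 over the 9 arrays, and 2.83% of that of Mt2, lay between groups, beside a median of 20.2% over all probe sets, and 53.9% for Nqo1 and 50.3% for Gclc. Among the 2074 probe sets with a mean signal of at least 12, Mt1 ranked 1 and Mt2 ranked 3 by within-group SD (1.76 and 1.51). Probe sets within 1 log2 unit of Mt1 had a median SD of 0.14. Over the 9 arrays Mt1 and Mt2 correlated at r = 0.99 (exact permutation p 2.2e-05, adjusted p 0.000198 over 9 relations among these genes) and at Spearman's rho = 0.95 (exact permutation p 0.000353, adjusted p 0.00317). Without untreated replicate 3 and BI replicate 3, the arrays farthest from the median of Mt1, r was 0.97, and with group means removed it was 0.99. The suffix of the brightest Mt1 probe set marks probes shared by several transcripts, and whether it also reads Mt2 RNA was not tested. The other Mt1 probe set, far dimmer, was at 7.18, 6.24 and 5.67 with BI, 4.91, 5.69 and 10.52 with Insulin, and 7.04, 10.61 and 4.52 without treatment. It was high on the arrays where the brighter one was highest (Insulin replicate 3 and untreated replicate 2) but not on Insulin replicate 2.

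**Figure D3:**
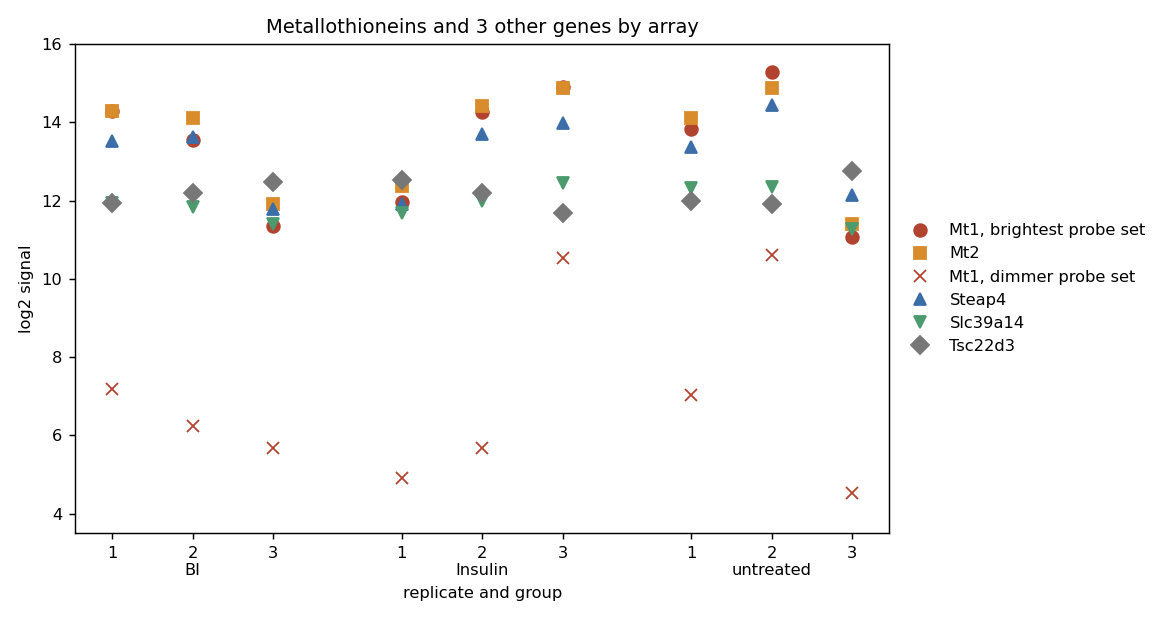
Log2 signal (vertical axis) of the Mt1 probe sets, Mt2, Steap4, Slc39a14 and Tsc22d3 on each of the 9 arrays (horizontal axis, replicates within groups). BI replicate 3, Insulin replicate 1 and untreated replicate 3 have the lowest Mt1, Mt2, Steap4 and Slc39a14 signals of their groups and the highest Tsc22d3 signals.

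**Figure D4:**
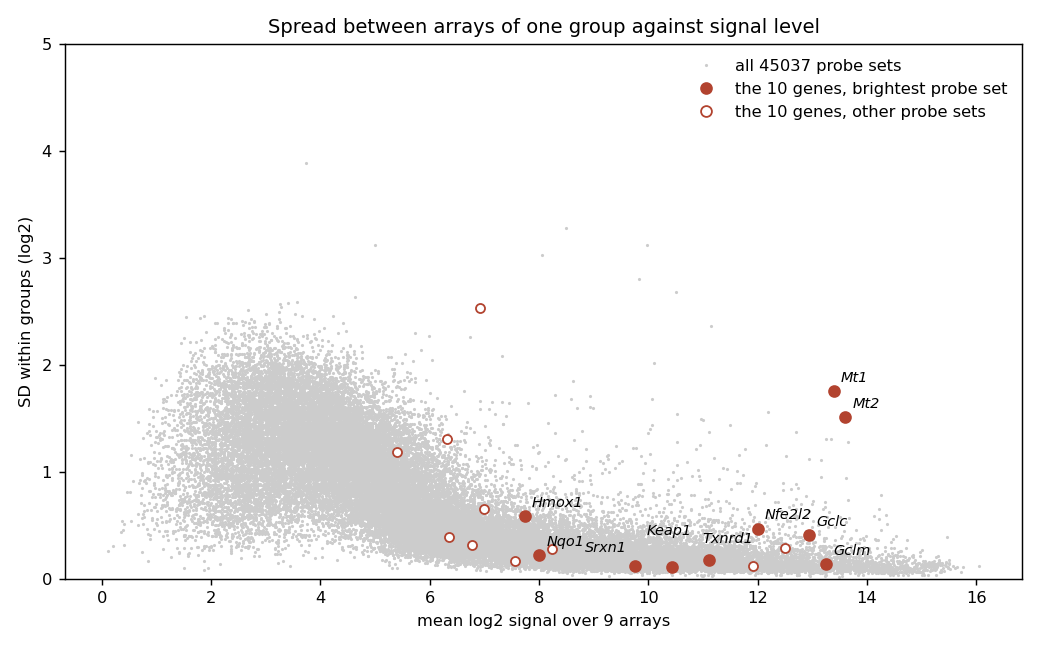
Within-group SD (vertical axis, log2) against mean log2 signal over 9 arrays (horizontal axis) for all 45037 probe sets (grey), with the 20 probe sets of the 10 genes in red. Mt1 (SD 1.76) and Mt2 (SD 1.51) stand far above other probe sets of their level, and Keap1 (0.11) and Srxn1 (0.12) lie low in theirs.

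Mt1 and Mt2 are neighbours on chromosome 8. Their promoter windows, from 250 bases before to 50 after the start in RefSeq (GRCm38.p6, both on the + strand), are shown because the signals of these genes varied together. Capitals mark MRE matches, spelled TGCACNC or TGCGCNC and searched on both strands. The Mt1 window is chr8:94178839-94179138 and the Mt2 window chr8:94172368-94172667.
Mt1: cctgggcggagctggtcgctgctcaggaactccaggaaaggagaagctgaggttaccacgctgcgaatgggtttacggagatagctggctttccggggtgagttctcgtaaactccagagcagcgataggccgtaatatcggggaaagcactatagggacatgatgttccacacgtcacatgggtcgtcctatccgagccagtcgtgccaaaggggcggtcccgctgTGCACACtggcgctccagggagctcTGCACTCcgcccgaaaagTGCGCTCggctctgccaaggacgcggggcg
Mt2: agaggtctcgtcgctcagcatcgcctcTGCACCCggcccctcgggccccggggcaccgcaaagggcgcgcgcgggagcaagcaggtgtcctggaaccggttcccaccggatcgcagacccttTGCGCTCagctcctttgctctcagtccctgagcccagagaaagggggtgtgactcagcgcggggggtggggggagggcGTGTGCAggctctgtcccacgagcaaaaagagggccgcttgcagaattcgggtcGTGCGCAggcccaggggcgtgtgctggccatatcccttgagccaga
The Mt1 window held 3 matches and the Mt2 window 4. Among all 32851 RefSeq promoter windows, 25.7% held at least 1, 1.97% at least 3 and 0.517% at least 4. RefSeq windows were found for 8 of the 10 genes, and those of Gclm (3 matches) and Srxn1 (1 match) also held MRE letters. ARE letters, TGACNNNGC or TGAGNNNGC on either strand, occurred in windows of 5 of the 8 genes (Nfe2l2, Gclm, Txnrd1, Srxn1 and Mt2) and in 27.8% of all promoter windows. Txnrd1 has more than 1 window, not all with ARE letters, so the count by gene and the share by window are unlike measures. These are matches of letters and not shown to be sites.

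Of the genes whose pattern over the 9 arrays was most like that of Mt1, Steap4 (r = 0.96), a metalloreductase of the plasma membrane that is induced in inflammation, Dnajc22 (r = 0.94), a heat shock protein family member, and Xdh (r = 0.93), xanthine dehydrogenase, led among 8864 genes compared. Steap4 was at 13.52, 13.63 and 11.78 with BI, 11.91, 13.71 and 13.99 with Insulin, and 13.37, 14.44 and 12.13 without treatment, and so was low on the same 3 arrays. In the list of 27 zinc and copper genes, r with Mt1 ran from -0.86 (Atp7b, a copper exporter) to 0.93 (Slc39a14, a zinc importer), with a median of -0.04. Slc30a5, a zinc transporter of the secretory pathway, was the other gene over 0.8 there (r = 0.87). Mtf1, the zinc sensor that drives metallothionein genes, lay between 8.61 and 9.07 (r = -0.26). Over 22 acute phase genes r ran from -0.76 (Hp) to 0.96 (Steap4), with a median of 0.46. Steap4 and Socs3, a brake on cytokine signalling (r = 0.83), were over 0.8. Over 17 glucocorticoid targets r ran from -0.93 (Tsc22d3, a strong glucocorticoid target) to 0.71 (Cebpd), with a median of 0.14. Over all 9087 genes at or above the median level, 1.29% had r over 0.8 and 1.05% under -0.8. Atp7b, Slc39a14, Slc30a5, Hp, Socs3, Tsc22d3 and Cebpd were chosen after their values were seen.

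Other measures varied with the metallothioneins in part. Within each group the array lowest in Mt1 had the largest Gapdh excess of 3' over 5' probe set signal, which tracks RNA integrity: 0.42 on BI replicate 3 (0.39 and 0.26 on the other BI arrays), 0.55 on Insulin replicate 1 (0.54 and 0.48), and 0.65 on untreated replicate 3 (0.28 and 0.31). The margin was small in the BI and Insulin groups. Across groups the order did not hold: Insulin replicates 2 and 3, with Mt1 at 14.26 and 14.89, had a larger excess than BI replicate 3, with Mt1 at 11.34. The mean log2 signal of 14 Kupffer cell markers was 10.08, 9.57 and 9.15 with BI, 9.70, 9.85 and 10.07 with Insulin, and 9.50, 9.92 and 9.74 without treatment (r = 0.64 with Mt1). Their summed signal ran from 17588 to 32791 with BI, 21184 to 30298 with Insulin and 17825 to 30152 without treatment, Marco was below the lowest array median and none was at 0. The mean log2 signal of 12 stellate cell markers ran the other way (r = -0.76 with Mt1), though single genes had r from -0.83 to 0.63 (median -0.34). Their summed signal was 16756 to 21418, 17279 to 21724 and 14021 to 21737 in the same order, with Des and Col1a1 below the lowest array median and none at 0. The part of RNA quality or of these cells in the metallothionein signal was not tested.

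The genes most like the other members over the 9 arrays were Haghl (r = 0.92), Slc25a5, a mitochondrial ADP/ATP carrier (0.91), and Nr1h4, the bile acid receptor FXR (0.90), for Nfe2l2. For Nqo1 they were Serhl (r = 0.93), Wfdc2, a secreted protease inhibitor family member (0.91), and Cd36, a fatty acid transporter (0.89). For Gclc they were Nt5e, which makes adenosine (r = 0.97), Plin5, a coat protein of lipid droplets (0.94), and Glce, an enzyme of heparan sulfate synthesis (0.93). Nt5e was at 9.90, 10.04 and 10.05 with BI, 8.86, 9.49 and 9.34 with Insulin, and 9.15, 9.45 and 9.77 without treatment. Its BI arrays lay above all others, which those of Gclc did not, and since Nt5e was chosen for its likeness this is no separate observation. For Hmox1 they were Coa6, an assembly factor of cytochrome c oxidase (r = 0.99), Pnn (0.96) and Tspo, a protein of the outer mitochondrial membrane (0.95), each highest on untreated replicate 2. These r values are the highest among 8864 genes over 9 arrays and carry no p.

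No relation of Nfe2l2 mRNA with its targets passed the adjusted test by Pearson's r. Its r was 0.30 with Nqo1, 0.26 with Gclc, 0.17 with Gclm, 0.49 with Hmox1 and 0.23 with Srxn1 (exact permutation p 0.18 to 0.692, adjusted p 0.392 to 0.692), and Spearman's rho with these 5 genes was 0.18 to 0.48. Without untreated replicates 1 and 2, the arrays farthest from the median of Nfe2l2, these r values were -0.41, 0.16, 0.10, -0.12 and 0.35. With group means removed over the 9 arrays they were 0.71, 0.39, 0.19, 0.42 and 0.22, so the relation with Nqo1 depended on how it was taken. With Txnrd1 r was -0.73 (exact permutation p 0.0243, adjusted p 0.109) and rho -0.82 (exact permutation p 0.0108, adjusted p 0.0485), with r = -0.83 when untreated replicates 1 and 2 were left out and -0.74 with group means removed. With Keap1 r was -0.53 (exact permutation p 0.142, adjusted p 0.392) and rho -0.45, with r = -0.28 without the same 2 arrays and -0.47 with group means removed. Gclc and Gclm, subunits of the same enzyme, had r = 0.46 (exact permutation p 0.218, adjusted p 0.392) and rho 0.52, with r = 0.49 without Insulin replicate 1 and BI replicate 3 and -0.00 with group means removed.

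Of 49 other known NRF2 targets 41 were measured, and 0 passed the adjusted test in either direction in any comparison. In BI against untreated 6 of 41 (14.6%) lay above on all arrays, where 4.94% of all probe sets did, and 3 (7.32%) below, where 4.26% did. The genes of smallest p were Gstm2, a glutathione transferase (-0.87 ± 0.29), and Abcc4, an exporter of conjugates (0.71 ± 0.27, or 0.41 without untreated replicate 1, from 8.36 to 8.64 with BI and from 7.21 to 8.15 without treatment). In BI against Insulin 6 of 41 (14.6%) lay above (4.6% of all) and 1 below (5% of all), with the exporter Abcc3 (0.54 ± 0.18) and Akr1c13, an aldo-keto reductase (0.45 ± 0.20, or 0.28 without BI replicate 2), of smallest p. Abcc3 was at 11.96, 12.34 and 12.02 with BI and at 11.71, 11.64 and 11.34 with Insulin, against 11.69, 11.82 and 11.89 without treatment. In Insulin against untreated 1 of 41 lay above (5.33% of all) and 3 below (3.86% of all), with Gstm2 at -0.82 ± 0.29 and Abcc4 at 0.55 ± 0.27. The median of the list was 0.03, 0.08 and -0.05 in these 3 comparisons.

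**Figure D5:**
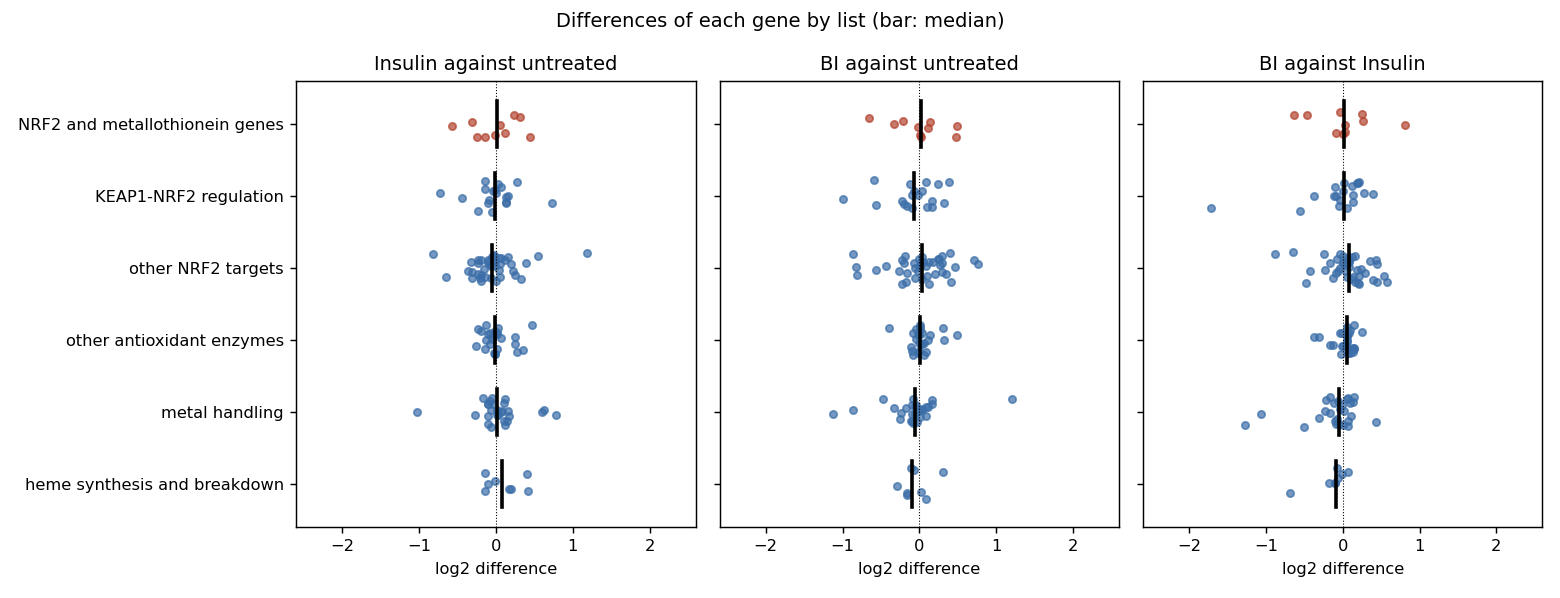
Log2 difference (horizontal axis) of each measured gene in 6 lists, for the 3 comparisons, with the median of the list as a bar. Medians lie between -0.09 and 0.08, and no gene of these lists passed the adjusted threshold.

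No gene passed in the other lists either. Of 19 regulators and partners of NRF2, the small MAF gene Mafg stood at -0.44 ± 0.22 with Insulin against untreated, and the cell cycle inhibitor Cdkn1a at -0.73 ± 0.49. For Mafg the Insulin arrays lay below the untreated ones, as for 1 of the 19 (5.26%), where 3.86% of all probe sets did so. Btrc, a subunit of another ligase that degrades NRF2 (-0.56 ± 0.37), and Nfe2l3, a relative of NRF2 (-0.99 ± 0.75), had the smallest p for BI against untreated, and Nfe2l3 (-1.72 ± 0.75) and Rbx1, a subunit of the CUL3 ligase (-0.38 ± 0.24), for BI against Insulin. Of 26 other antioxidant enzymes, Prdx4, a peroxiredoxin, stood at 0.27 ± 0.19 and Txnip, an inhibitor of thioredoxin, at 0.47 ± 0.35 with Insulin, and Pon1, a serum paraoxonase, at 0.49 ± 0.28 and Prdx4 at 0.31 ± 0.19 with BI. Without untreated replicate 2, Pon1 was at 0.17 and Prdx4 at 0.18 with BI, and Prdx4 at 0.14 with Insulin. For BI against Insulin 4 of these 26 (15.4%) lay above, where 4.6% of all probe sets did (Msra and Pon1, and Cat and Msrb1, named after their values were seen), with Txnip at -0.38 ± 0.35 and Msra at 0.15 ± 0.15. Of the zinc and copper genes, Slc30a1, the zinc exporter that MTF1 is known to induce, stood at -0.25 ± 0.16 with BI against untreated, below on all arrays, and Slc39a4 at -0.33 ± 0.26. In that comparison 2 of 27 genes (7.41%), Slc30a1 and Ccs, lay below on all arrays, where 4.26% of all probe sets did. Slc31a2 (0.62 ± 0.32) and Ccs (-0.17 ± 0.15) led for Insulin against untreated, and Slc31a2 (-0.51 ± 0.32) and Slc30a9 (-0.23 ± 0.16) for BI against Insulin. Mt3 and Mt4, the other metallothionein genes measured, lay at 2.18 to 7.19 and 2.89 to 6.57, with means (5.18 and 4.65) below the array medians. Of 8 heme genes in Insulin against untreated, 1 (12.5%) lay above, the synthesis enzyme Ppox, where 5.33% of all probe sets did, and 2 (25%) lay below, where 3.86% did. Those below were the synthesis enzymes Alad (-0.14 ± 0.16) and Uros (-0.15 ± 0.15), Alad being named after its values were seen. Ppox stood at 0.42 ± 0.23 with Insulin and 0.31 ± 0.23 with BI, each against untreated (0.22 and 0.11 without untreated replicate 1), and the synthesis enzyme Cpox at 0.17 ± 0.17 with Insulin. Uros stood at -0.16 ± 0.15 in BI against untreated. In BI against Insulin, Blvra, a biliverdin reductase, stood at -0.18 ± 0.21 and Alas1, the first enzyme of heme synthesis, at -0.69 ± 0.85, or -0.07 without BI replicate 3.

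In the lists of known inducers' other targets, glucocorticoid targets had medians of 0.08 for Insulin against untreated, -0.15 for BI against untreated and -0.21 for BI against Insulin, with, in BI against untreated, Tat, a tyrosine-degrading enzyme, at -0.51 ± 0.19 and Ddit4, an inhibitor of mTORC1, at -1.10 ± 0.53. Tat stood at -0.30 ± 0.19 and Lcn2, a siderophore-binding protein, at -0.55 ± 0.39 in Insulin against untreated, and Pck1, a gluconeogenic enzyme, at -0.40 ± 0.18 and the clock gene Per1 at -0.92 ± 0.67 in BI against Insulin. Acute phase genes had medians of -0.05, -0.03 and 0.05 in the same order. Hamp, the gene of the iron hormone hepcidin, stood at 1.22 ± 0.95 in BI against untreated, or 0.03 without untreated replicate 3, and Saa3, a serum amyloid A gene, at -1.21 ± 0.86, or -0.24 without untreated replicate 2. Orm2, an orosomucoid, stood at -0.72 ± 0.58 and Socs3 at -0.90 ± 0.77 in Insulin against untreated, and Il1rn, the interleukin 1 receptor antagonist, at -0.41 ± 0.41 and Itih4 at 0.13 ± 0.16 in BI against Insulin. In both lists 0 genes passed. Of the 42 differences of list genes of smallest p, 31 came nearer to 0 by over 1.5 times when 1 array was left out, and 0 turned in sign.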

How the data were processed

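Total RNA from liver was labelled with biotin by a 3' IVT kit and hybridised to one-colour Affymetrix arrays (per the labels' protocols). Each probe set has a log2 signal as the authors deposited it. How they summarized and normalized the scans was not given in the sources used here. The values have a floor at a log2 of 0 and a common scale on all arrays, and were used as deposited, with no detection call. Of 45101 probe sets, 64 controls were left out. In the 2016 platform annotation 34945 probe sets had 1 symbol, 932 several and 9160 none; 34741 of the symbols were updated through gene IDs. A gene is represented by its brightest probe set over the 9 arrays.

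All arrays entered 1 limma fit (version 3.58.1, R 4.3.3) with group as the only factor, two-sided tests, Benjamini-Hochberg adjustment over 45037 probe sets and a threshold of 0.05. The fit was tested in 10 simulations, each with 100 changes of 2-fold and 100 of 4-fold put into BI against untreated. It recovered 9.9% of the 2-fold and 69% of the 4-fold changes. False calls averaged 5.3 per simulation, and the unchanged comparison gave 0 calls. Most 2-fold changes were thus missed, so the absence of a call does not by itself exclude one. Correlations over arrays used exact permutation tests (two-sided). Over all probe sets, the deviations of same-numbered arrays of different groups had r from -0.0336 to 0.0355. This r takes in dim probe sets, so it cannot exclude a shift shared by some genes. The replicate number was not used as a block in the main fit, and a fit with it is among the alternatives. Alb rose from replicate 1 to 3 in every group (untreated 15.15, 15.36 and 15.44, Insulin 15.18, 15.31 and 15.41, BI 15.18, 15.29 and 15.45). So did the bright hepatocyte markers Cyp2e1, Cyp3a11 and Serpina1c, while Apoa1 and Hnf4a did not, all named after their values were seen. Array medians were lowest on replicate 1 of every group (6.11 untreated, 6.17 Insulin, 6.13 BI). Whether same-numbered arrays share a batch was not tested.

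Genes named besides the 10 are, per list and comparison, the 2 of smallest p (none passed the threshold; marker lists are given by sums and counts), and the 3 most like Nfe2l2, Nqo1, Gclc, Hmox1 and Mt1 among genes at or above the median level, leaving out clones and predictions. Other genes, named from a count or a range, were picked with their values in view. The members, lists and tests were chosen with earlier results of these data known. Alternatives tried were quantile normalization, equal array medians, leaving out probe sets below the median level of 6.04, a floor at 6, a variance trend with robust fitting, only the groups compared, array weights, the replicate block, averaging all probe sets of a gene, and leaving out each array. The number of arrays limits the precision.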

Additional observations from a re-analysis of the deposited data

How the results depend on the processing

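In each of the 18 alternatives no member passed in the 3 comparisons. Averaging all probe sets of a gene was tested by gene, the smallest limma adjusted p of a member gene in any setting being 0.742. The other alternatives tested the 20 probe sets (19 with dim probe sets left out), with a smallest limma adjusted p of 0.531. The replicate block also called 0, with Gclc at 0.81 ± 0.23 and Nqo1 at 0.26 ± 0.23 for BI against Insulin. The positive signs of Gclc and Nqo1 for BI against untreated and BI against Insulin held in all 18 alternatives. Averaging all probe sets of a gene, the median of the 10 genes moved to -0.10 for Insulin against untreated and 0.10 for BI against Insulin. With that mean the sign also turned for Keap1 (-0.13 for Insulin and -0.02 for BI, each against untreated), Txnrd1 (-0.12 for Insulin against untreated, 0.43 for BI against Insulin), Srxn1 (0.01 for Insulin and -0.02 for BI, each against untreated, and -0.02 for BI against Insulin) and Mt1 (-0.02 for Insulin against untreated). With equal array medians it turned for Txnrd1 (-0.00 for Insulin and -0.01 for BI) and Srxn1 (-0.02 for BI), each against untreated, and with array weights for Keap1 (-0.00 for BI against Insulin) and Mt2 (0.03 for BI against untreated). The means of different probe sets mix dim and bright signals; otherwise the cause was not tested. Leaving out each array in turn, the median of the 10 genes ranged from -0.08 to 0.10 for Insulin against untreated, -0.03 to 0.14 for BI against untreated and -0.01 to 0.17 for BI against Insulin, and the mean difference of Mt1 and Mt2 from -0.72 to 1.20 for Insulin against untreated, -1.27 to 0.65 for BI against untreated and -1.36 to 0.26 for BI against Insulin. Signs turned for Insulin against untreated in Txnrd1 (-0.08 to 0.17), Srxn1 (-0.08 to 0.08), Mt1 (-0.85 to 1.26) and Mt2 (-0.59 to 1.19). Signs turned for BI against untreated in Gclm (-0.02 to 0.20), Txnrd1 (-0.05 to 0.09), Srxn1 (-0.04 to 0.11), Mt1 (-1.49 to 0.62) and Mt2 (-1.05 to 0.75). Signs turned for BI against Insulin in Nfe2l2 (-0.16 to 0.15), Keap1 (-0.03 to 0.09), Hmox1 (-0.20 to 0.12), Txnrd1 (-0.15 to 0.10), Srxn1 (-0.02 to 0.09), Mt1 (-1.51 to 0.22) and Mt2 (-1.21 to 0.31). Without Insulin replicate 1, Gclc for BI against Insulin was 0.55 (unadjusted p 0.130). With 3 arrays a group, 95% half-widths of the 10 genes ran from 0.37 to 3.02 (median 0.63), which limits what could be detected.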

Other observations

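Some genes outside the 10 were also widely scattered between arrays of a group, though only Hspa1b exceeded Mt2 and none Mt1 at this level. Among the 2074 probe sets with a mean signal of at least 12, the largest within-group SDs were those of Mt1 (1.76), Hspa1b, an inducible heat shock chaperone (1.56), Mt2 (1.51), Cxcl1, a neutrophil chemokine (1.37 and 1.31 for its probe sets), Hamp (1.31 and 1.28), Serpina4-ps1 (1.25), Alas1, the rate-limiting enzyme of heme synthesis (1.15), Phlda1 (1.12), Steap4 (1.11) and Thrsp, a lipogenic gene (0.95). These genes were chosen after their values were seen.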
